A study of Homo sapiens with 10 samples.

Results

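The zinc transporters described here are 10 genes of HEK-293 cells, 6 of the ZIP family (SLC39A1, SLC39A3, SLC39A6, SLC39A7, SLC39A10 and SLC39A14) and 4 of the ZnT family (SLC30A1, SLC30A5, SLC30A7 and SLC30A9). They were taken by gene symbol from 18404 genes measured on Affymetrix expression arrays. Each had 1 probe set listed with its symbol alone, and all 10 lay at or above 7.66, the median level of all genes on the log2 scale. The list was chosen by measured differences between the siRNA groups, above all the low SLC39A1 level with 1 siRNA against LOC440173 and not with the other. The SLC39A1 values are therefore a description with no test, and the counts of members below are read in the same way. Adjusted p are given for the other 9 members, but they do not allow for this choice of the list.

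ZIP proteins bring zinc into the cytosol, from outside the cell or from organelles, and ZnT proteins move it out of the cytosol, to the outside or into organelles. Between them they set how much zinc reaches the many enzymes and transcription factors that need it. Cells sense free zinc with the transcription factor MTF1, which binds metal response elements in DNA when zinc rises. It is known to switch on metallothioneins, small zinc-binding proteins, and the exporter SLC30A1, and to restrain the importer SLC39A10.

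HEK-293 is an established line of human embryonic kidney cells with some neuronal features. The labels name no change to the cells other than the small interfering RNA (siRNA), transfected with RNAiMax, and RNA was taken 48 hours later. The 5 groups of 2 arrays were a control siRNA (10 nM), LOC440173 siRNA 1 (10 nM), LOC440173 siRNA 2 (10 nM), that same control (100 nM), and a PAXIP1-AS1 siRNA (100 nM). LOC440173 (now LINC02893) and PAXIP1-AS1 are long non-coding RNAs, and the question was which genes change when each is silenced. The labels call the arrays of a group biological replicates. The control siRNA is a commercial one of undisclosed sequence, PAXIP1-AS1 was targeted by a single siRNA, and siRNA sequences were not used here.

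Groups were compared with limma, and a gene is called higher or lower where its p, adjusted over all genes, is under 0.05. The target LINC02893 fell with siRNA 1, to 51.4% of its control, and with siRNA 2, to 27.0% (limma adjusted p = 0.000305 and 1.38e-05), while PAXIP1-AS1 had no listed probe set. Array medians lay between 7.06 and 7.12, and replicate arrays correlated across probe sets at r = 0.994 to 0.997. Of the marker lists used to check the label, 5 of 6 measured neuronal genes lay at or above the median gene level. So did 5 of 9 measured genes of a list for HEK-293 and embryonic kidney, with PAX2, PAX8, LHX1 and KRT8 below that level. For hepatocyte, blood, keratinocyte and pancreatic islet markers it was 0 of 5 measured genes each, and for fibroblast and endothelial markers 1 of 7, COL1A1. In RNA from whole cultures, fewer cells of a kind and less RNA per cell cannot be told apart.

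The start regions of the members are shown first, because SLC30A1 and SLC39A10 have a known link to MTF1. Windows are printed for these members and SLC39A1, and not for every member low under siRNA 1. RefSeq windows of 300 bases, from 250 before to 50 after a gene's start (GRCh38.p14), were read for 9 members, with 11 windows in all. SLC39A14 was left out of this search, so its letters are not among the counts below. The core letters of the metal response element were searched on both strands as TGCACNC and as TGCGCNC, which cannot match the same 7 bases on one strand. In the lines below, 5′ to 3′ on the gene's strand, capitals mark these matches.
SLC39A1, chr1:153963488-153963787, minus strand: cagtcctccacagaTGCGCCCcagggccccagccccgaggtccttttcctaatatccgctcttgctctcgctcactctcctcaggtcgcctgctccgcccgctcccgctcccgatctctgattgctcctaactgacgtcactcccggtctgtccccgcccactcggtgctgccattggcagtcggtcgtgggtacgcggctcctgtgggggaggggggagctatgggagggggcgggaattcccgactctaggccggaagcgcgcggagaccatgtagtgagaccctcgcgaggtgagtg
SLC39A10, chr2:195656976-195657275, plus strand: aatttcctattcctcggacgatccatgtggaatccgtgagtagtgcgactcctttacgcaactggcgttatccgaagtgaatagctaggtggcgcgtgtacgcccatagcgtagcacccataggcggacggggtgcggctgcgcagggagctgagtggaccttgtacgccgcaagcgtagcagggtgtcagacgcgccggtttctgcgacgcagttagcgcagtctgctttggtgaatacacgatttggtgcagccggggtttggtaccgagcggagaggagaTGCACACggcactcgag
SLC30A1, chr1:211579112-211579411, minus strand: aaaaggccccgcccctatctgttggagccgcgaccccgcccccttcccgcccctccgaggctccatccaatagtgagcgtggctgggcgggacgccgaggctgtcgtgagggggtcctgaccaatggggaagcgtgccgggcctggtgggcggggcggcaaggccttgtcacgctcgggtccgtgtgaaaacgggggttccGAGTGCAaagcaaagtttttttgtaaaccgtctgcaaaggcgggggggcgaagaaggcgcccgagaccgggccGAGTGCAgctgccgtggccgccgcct
The SLC30A1 window held 2 matches of TGCACNC, both on the opposite strand, and the SLC39A10 window held 1 on the gene's strand. The SLC39A1 window held 1 match of TGCGCNC, at bases 15 to 21 of the window. SLC39A1 and SLC39A10 each have another listed start whose window held none. SLC39A3 and SLC39A6 held 1 match of TGCGCNC each, so 5 of the 9 members, or 5 of the 11 windows, had a match. SLC39A7, SLC30A5, SLC30A7 and SLC30A9 had none. Whether a match goes with the siRNA 1 calls was not tested. Among all 35116 windows of this length 29.6% held either motif, 12.1% TGCACNC and 20.0% TGCGCNC. Windows with 2 or more matches, as in SLC30A1, made up 8.60%. A match is a description of the letters and does not show that MTF1 binds there.

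SLC39A1 encodes ZIP1, a widely expressed zinc importer. Its level was 9.48 and 9.50 on the arrays of the control at 10 nM, 7.59 and 7.54 with siRNA 1, and 9.38 and 9.40 with siRNA 2. It was 9.46 and 9.48 in the control at 100 nM and 9.44 and 9.57 with the PAXIP1-AS1 siRNA. Both siRNA 1 arrays lay below the other 8. With siRNA 1 the log2 difference from the control was -1.92 (SE 0.057), which leaves 26.4% of the control level, and with siRNA 2 it was -0.10 (SE 0.057), or 93.2%. Leaving out any single array kept the siRNA 1 difference between -1.95 and -1.90. With the PAXIP1-AS1 siRNA the log2 difference from its control was 0.04 (SE 0.057), and between the control doses -0.02.

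**Figure D1:**
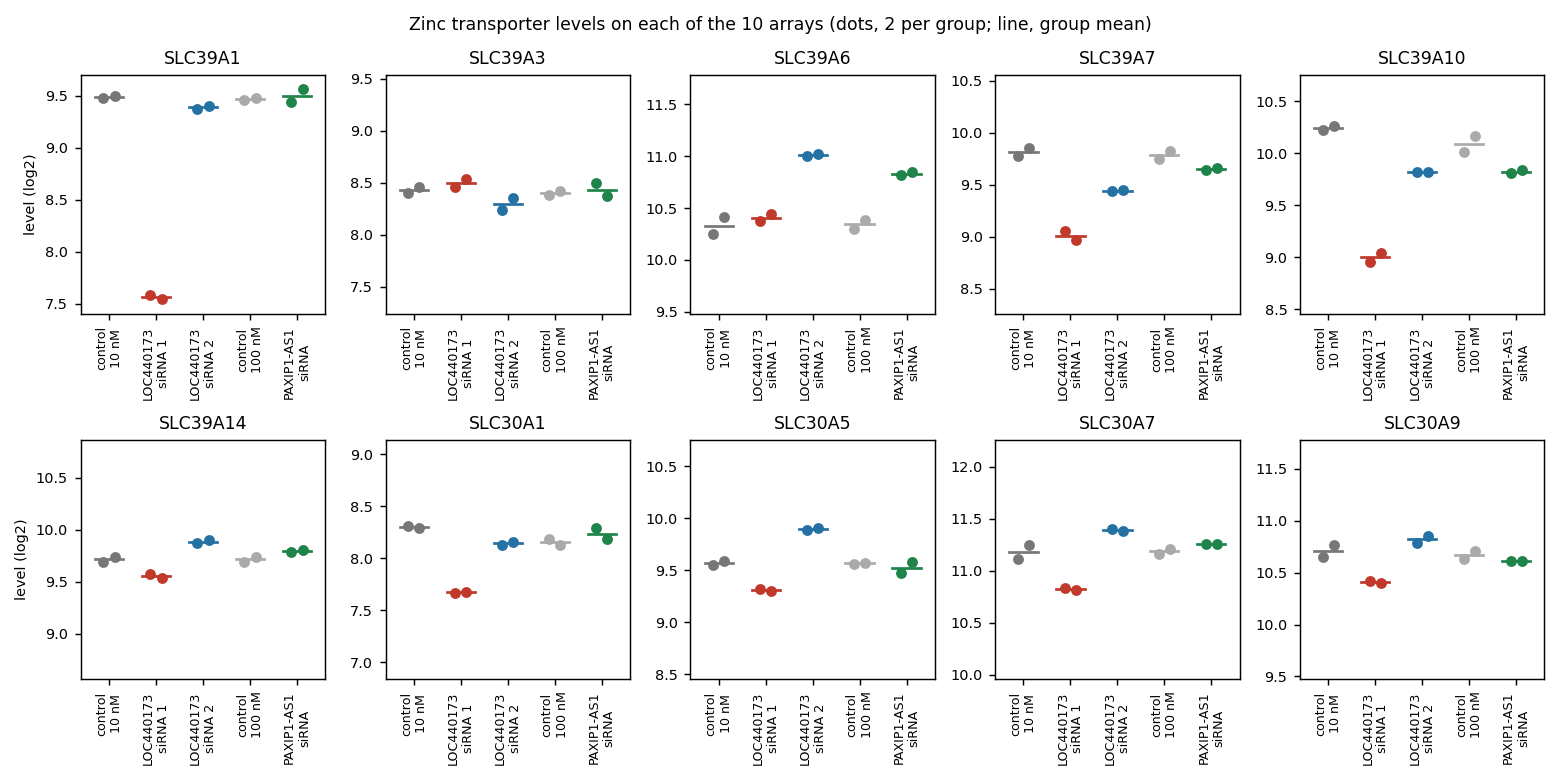
Level (log2) of each of the 10 zinc transporters on every array, 2 dots per group, with a line at the group mean; each panel spans the same number of log2 units around its own middle. SLC39A1 stands at 7.54 and 7.59 with siRNA 1 and between 9.38 and 9.57 on the other 8 arrays, and SLC39A6 is high with siRNA 2 and with the PAXIP1-AS1 siRNA.

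Among the other importers of the cell surface, SLC39A10 (ZIP10) was lower with both LOC440173 siRNAs. Its level was 10.22 and 10.26 in the control at 10 nM, 8.96 and 9.04 with siRNA 1, and 9.82 and 9.83 with siRNA 2. It was 10.02 and 10.17 in the control at 100 nM and 9.81 and 9.84 with the PAXIP1-AS1 siRNA. In each of these 3 comparisons the treated arrays lay below their own control arrays. SLC39A10 fell by 1.24 on the log2 scale with siRNA 1 (SE 0.063, adjusted p = 1.46e-05), which left 42.3% of its control level. The siRNA 2 fall was smaller, at -0.42 (SE 0.063, adjusted p = 0.00163). With the PAXIP1-AS1 siRNA it was -0.27 (95% interval -0.41 to -0.12), and the adjusted p of 0.0555 did not pass 0.05. That value passed under 4 of 7 alternative settings, with adjusted p from 0.00654 to 0.0300, and reached 0.250 without PAXIP1-AS1 siRNA replicate 1.

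SLC39A6 encodes ZIP6, which forms complexes with ZIP10. It stood at 10.25 and 10.42 in the control at 10 nM, 10.37 and 10.44 with siRNA 1, and 11.00 and 11.02 with siRNA 2. The control at 100 nM gave 10.30 and 10.38 and the PAXIP1-AS1 siRNA 10.82 and 10.84. The siRNA 1 arrays overlapped their control, while the arrays of siRNA 2 and of the PAXIP1-AS1 siRNA lay above theirs. Under siRNA 2 SLC39A6 rose by 0.68 (SE 0.068, adjusted p = 0.000220), to 160% of its control. Under the PAXIP1-AS1 siRNA it rose by 0.49 (SE 0.068, adjusted p = 0.00887), to 140%. The second call was lost without control 100 nM replicate 1 (adjusted p = 0.0778), without PAXIP1-AS1 siRNA replicate 1 (0.0742) and without its replicate 2 (0.0887). With siRNA 1 SLC39A6 differed by 0.08 (95% interval -0.08 to 0.23, adjusted p = 0.429).

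SLC39A3 (ZIP3), a close relative of ZIP1, had the narrowest spread of the 10 members, at 0.30 log2 units over all arrays. Its level was 8.41 and 8.46 in the control at 10 nM, 8.46 and 8.54 with siRNA 1, 8.24 and 8.36 with siRNA 2, 8.38 and 8.42 in the control at 100 nM, and 8.50 and 8.38 with the PAXIP1-AS1 siRNA. It differed from control by 0.07 with siRNA 1 (95% interval -0.08 to 0.22, adjusted p = 0.466), by -0.13 with siRNA 2 (-0.28 to 0.02, 0.201) and by 0.03 with the PAXIP1-AS1 siRNA (-0.12 to 0.19, 0.859). SLC39A14 (ZIP14), which also carries iron and manganese, gave small differences of opposite sign. It stood at 9.69 and 9.74 in both controls, 9.57 and 9.53 with siRNA 1, 9.88 and 9.90 with siRNA 2, and 9.79 and 9.80 with the PAXIP1-AS1 siRNA. The siRNA 1 value of -0.17 (SE 0.048, adjusted p = 0.0367) and the siRNA 2 value of 0.17 (SE 0.048, adjusted p = 0.0308) were called, and the PAXIP1-AS1 value of 0.08 was not (adjusted p = 0.461). The first pair of calls was lost with every probe set tested on its own or other groups kept out of the fit, and each was lost without most single arrays (adjusted p up to 0.166 with siRNA 1 and 0.117 with siRNA 2).

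SLC39A7 (ZIP7) releases zinc from the endoplasmic reticulum and Golgi into the cytosol. It was measured at 9.77 and 9.85 in the control at 10 nM, 9.05 and 8.97 with siRNA 1, and 9.43 and 9.45 with siRNA 2. The control at 100 nM gave 9.74 and 9.82 and the PAXIP1-AS1 siRNA 9.64 and 9.66. Each siRNA group lay below its own control, and siRNA 1 gave the lowest arrays. Its log2 fold changes were -0.80 for siRNA 1 (SE 0.056, adjusted p = 4.88e-05) and -0.37 for siRNA 2 (SE 0.056, adjusted p = 0.00166). For the PAXIP1-AS1 siRNA the difference of -0.13 was not called (95% interval -0.26 to 0.00, adjusted p = 0.280).

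All 4 ZnT members were lower with siRNA 1, a comparison in which 16.7% of all genes, and 26.6% of genes at or above the median level, were lower. SLC30A1 (ZnT1), the exporter of the plasma membrane, stood at 8.31 and 8.29 in the control at 10 nM, 7.66 and 7.68 with siRNA 1, 8.13 and 8.15 with siRNA 2, 8.18 and 8.13 in the control at 100 nM, and 8.29 and 8.18 with the PAXIP1-AS1 siRNA. Both siRNA 1 arrays lay below all other arrays. SLC30A1 fell by 0.63 (SE 0.054, adjusted p = 0.000119) with siRNA 1, to 64.7% of the control. With siRNA 2 it differed by -0.16 (SE 0.054, adjusted p = 0.0616), which was called with dim genes left out (0.0159), and the PAXIP1-AS1 difference was 0.08 (95% interval -0.04 to 0.20, adjusted p = 0.505).

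SLC30A5 (ZnT5), which works with ZnT6 to load zinc into enzymes of the early secretory pathway, and SLC30A7 (ZnT7) of the Golgi went down with siRNA 1 and up with siRNA 2. SLC30A5 measured 9.55 and 9.59 in the control at 10 nM, 9.32 and 9.30 with siRNA 1, 9.88 and 9.90 with siRNA 2, 9.56 and 9.57 in the control at 100 nM, and 9.47 and 9.57 with the PAXIP1-AS1 siRNA. SLC30A7 measured 11.11 and 11.25, 10.83 and 10.82, 11.40 and 11.39, 11.16 and 11.21, and 11.26 and 11.26 in the same order. For both genes the siRNA 1 arrays were the lowest of the 10 and the siRNA 2 arrays the highest. SLC30A5 changed by -0.26 (SE 0.052, adjusted p = 0.00682) and 0.32 (SE 0.052, adjusted p = 0.00246). SLC30A7 changed by -0.36 (SE 0.058, adjusted p = 0.00269) and 0.21 (SE 0.058, adjusted p = 0.0258). The siRNA 2 call of SLC30A7 was lost without control 10 nM replicate 1, where the difference was 0.14 (adjusted p = 0.113), without either siRNA 2 array (0.0955 and 0.0800), with every probe set on its own (0.0537) and with other groups kept out of the fit (0.163).

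SLC30A9, a zinc exporter of mitochondria, stood at 10.65 and 10.76 in the control at 10 nM, 10.42 and 10.40 with siRNA 1, 10.79 and 10.85 with siRNA 2, 10.63 and 10.70 in the control at 100 nM, and 10.61 and 10.61 with the PAXIP1-AS1 siRNA. Again the siRNA 1 arrays were the lowest. It fell by 0.30 (SE 0.057, adjusted p = 0.00608) with siRNA 1 and differed by 0.11 (95% interval -0.02 to 0.24, adjusted p = 0.210) with siRNA 2. With the PAXIP1-AS1 siRNA, SLC30A5, SLC30A7 and SLC30A9 differed by -0.04, 0.07 and -0.06 (adjusted p from 0.599 to 0.759).

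**Figure D2:**
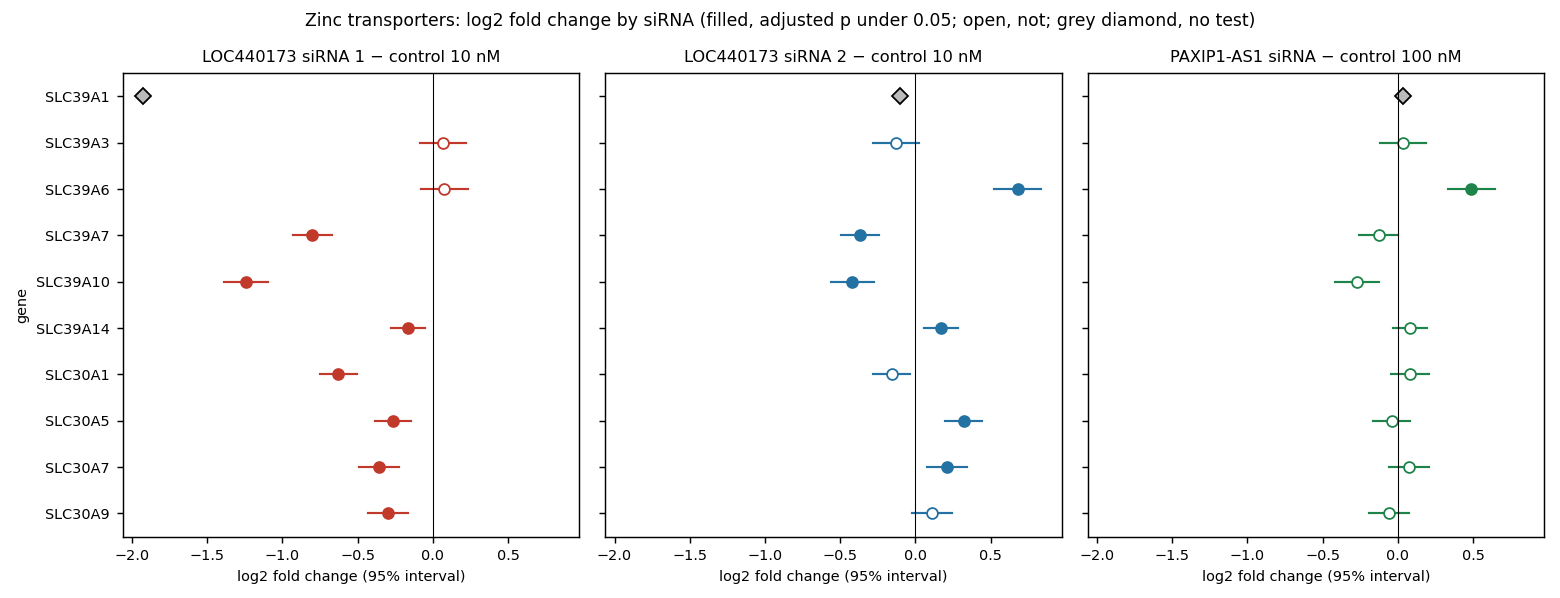
Log2 fold change against the control of the same dose, with its 95% interval, for 9 transporters and SLC39A1 (rows) with each siRNA (panels); filled dots passed an adjusted p of 0.05, open dots did not, and grey diamonds are SLC39A1 values given without a test. SLC39A1 stands at -1.92 and SLC39A10 at -1.24 with siRNA 1, and SLC39A6 lies above 0 in the other 2 panels.

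Counted over the list, siRNA 1 left 7 of the 9 members other than SLC39A1 lower and 0 higher. Across all genes 16.7% were lower and 12.1% higher, and 26.6% of genes at or above the median level, as all members are, were lower. The 9 had a median log2 fold change of -0.30, against 0.05 for all genes. With siRNA 2, 4 of the 9 were higher and 2 lower, against 12.5% and 17.4% of all genes, and their median was 0.11 against 0.01. The all-gene medians, and the all-gene shares for siRNA 2, include dim genes and were not computed for genes at or above the median level. Both LOC440173 siRNA comparisons use the same 2 control arrays.

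The LOC440173 siRNAs were also set against each other directly. SLC39A1 was higher with siRNA 2 than with siRNA 1 by 1.82 (SE 0.057). Of the other 9 members 8 were higher with siRNA 2 and 1 was lower. The shares over all genes were 18.2% higher and 19% lower, and 29.9% of genes at or above the median level were higher. The differences were 0.82 (SE 0.063, adjusted p = 3.21e-05) for SLC39A10, 0.60 for SLC39A6, 0.58 for SLC30A5, 0.57 for SLC30A7, 0.47 for SLC30A1, 0.43 for SLC39A7, 0.41 for SLC30A9 and 0.34 for SLC39A14, with adjusted p of 0.000899 or less. SLC39A3 was the lower one, at -0.20 (SE 0.067, adjusted p = 0.0478), a call that was lost without any single array other than siRNA 2 replicate 2 (adjusted p up to 0.227), with every probe set on its own (0.0858) and with other groups kept out of the fit (0.0975). LINC02893 itself was lower with siRNA 2 than with siRNA 1 by a log2 difference of -0.93 (limma adjusted p = 0.000177). Why SLC39A1 differed between the siRNAs was not tested.

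The PAXIP1-AS1 siRNA, which shares no array with the LOC440173 comparisons, changed 1 of the other 9 members, SLC39A6. Over all genes 2.86% were higher and 1.76% lower. The median of the 9 was 0.03, against -0.01 for all genes. The control siRNA at 100 nM was compared with that at 10 nM to show differences between the doses. None of the other 9 members was called, nor was any gene of the table (0% of 18404 by limma, with 692 genes at an unadjusted p under 0.05, among them SLC39A10 and SLC30A1). The members ranged from -0.15 for SLC39A10 to 0.01 for SLC39A6, and all adjusted p of the 9 were 1.00.

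The rest of the zinc transporter families was a list of 14 genes, made with results known like that of the members. With siRNA 1, 4 of the 14 were lower and 1 higher (median 0.04), with siRNA 2, 2 were lower and 3 higher (median 0.01), and with the PAXIP1-AS1 siRNA 0 were called by limma, with 3 at an unadjusted p under 0.05. The shares over all genes were 16.7% lower and 12.1% higher with siRNA 1 and 17.4% lower and 12.5% higher with siRNA 2. With the PAXIP1-AS1 siRNA they were 1.76% lower and 2.86% higher, and 3357 of the 18404 genes had an unadjusted limma p under 0.05. SLC39A8 (ZIP8), which carries zinc, manganese and cadmium, fell under siRNA 1 by 0.48 (SE 0.058, adjusted p = 0.000662) and under siRNA 2 by 0.82 (SE 0.058, adjusted p = 4.53e-05). Its arrays read 9.80 and 9.84 in the control, 9.33 and 9.34 with siRNA 1, and 8.97 and 9.03 with siRNA 2, and siRNA 2 gave a lower level than siRNA 1 (-0.34, adjusted p = 0.00222). SLC39A9 (ZIP9) fell and rose as SLC30A5 did, -0.34 under siRNA 1 and 0.33 under siRNA 2 (adjusted p = 0.00718 and 0.00670). SLC39A11 was lower with siRNA 1 (-0.35, adjusted p = 0.00511), SLC39A13 was lower with siRNA 2 (-0.28, 0.0192), and SLC30A4 was higher with siRNA 2 (0.34, 0.00248). The SLC39A13 call was lost without control 10 nM replicate 1 (adjusted p = 0.0950) or siRNA 2 replicate 2 (0.110), after another quantile normalization (0.0705) and with other groups kept out of the fit (0.113).

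SLC30A6, whose product ZnT6 is the partner of ZnT5, was 0.33 higher under each siRNA (adjusted p = 0.00242 and 0.00187) and differed by 0.01 between them (95% interval -0.11 to 0.13, adjusted p = 0.916). With siRNA 1 the partners therefore moved in opposite directions, SLC30A5 down and SLC30A6 up. SLC30A10, a manganese exporter, was lower with siRNA 1 (-0.69, SE 0.13, adjusted p = 0.00523) but dim, at 6.73 to 6.76 in the control and 5.92 to 6.20 with siRNA 1. The 7 listed transporters below the median gene level were SLC39A2, SLC39A5, SLC39A12, SLC30A2, SLC30A3, SLC30A8 and SLC30A10, and SLC30A10 was the only one of them called in any of these comparisons.

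Other genes of zinc handling came from a list of 25, of which 20 were measured. With siRNA 1, 10 of the 20 were higher and 2 lower, with siRNA 2, 0 were higher and 4 lower, and under the PAXIP1-AS1 siRNA 3 were higher and 0 lower. Over all genes 12.1% were higher and 16.7% lower with siRNA 1, 12.5% and 17.4% with siRNA 2, and 2.86% and 1.76% with the PAXIP1-AS1 siRNA. The metallothioneins made up most of this. Of the 10 measured, 9 were higher with siRNA 1 (median 0.37), 2 were lower with siRNA 2 (median -0.03), and 3 were higher with the PAXIP1-AS1 siRNA (median 0.31). Only 5 of the 10 lay at or above the median gene level, with MT1E, MT1G, MT1H, MT1M and MT4 below it. The count of 9 dropped to 3 without control 10 nM replicate 2 or siRNA 1 replicate 1 and to 4 without siRNA 1 replicate 2. The count of 3 dropped to 0 without either PAXIP1-AS1 siRNA array and to 1 without control 100 nM replicate 2. MT1F read 9.72 and 9.56 in the control at 10 nM, 10.41 and 10.50 with siRNA 1, 8.69 and 8.60 with siRNA 2, 9.76 and 9.63 in the control at 100 nM, and 10.31 and 10.26 with the PAXIP1-AS1 siRNA. The siRNA 1 and PAXIP1-AS1 arrays were above their controls and the siRNA 2 arrays below. MT1F rose by 0.82 (adjusted p = 0.000181), fell by 0.99 (6.44e-05) and rose by 0.59 (0.00685). MT1X went the same ways (0.25, -0.42 and 0.46, adjusted p of 0.00959 or less), while MT2A rose with siRNA 1 (0.44) and the PAXIP1-AS1 siRNA (0.40) and differed by -0.03 with siRNA 2. Metallothionein genes are near copies of each other, so their probe sets may share signal and are not separate evidence.

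MTF1, the zinc sensor, was not called with any siRNA. Its difference was 0.05 for siRNA 1 (95% interval -0.09 to 0.19, adjusted p = 0.599), 0.18 for siRNA 2 (0.04 to 0.32, 0.0618, and called under 4 alternative settings, with adjusted p from 0.0177 to 0.0352) and 0.13 for the PAXIP1-AS1 siRNA (-0.01 to 0.27, 0.308). Under siRNA 1, SLC30A1 and SLC39A10, which have a known link to MTF1, were lower. In the same comparison 9 metallothioneins were higher, a count that fell without some single arrays, and their links to MTF1 were not checked gene by gene. The metallothioneins are not separate evidence, and the activity of MTF1 was not tested. TMEM163, a zinc efflux protein below the median gene level, was lower with both LOC440173 siRNAs (-0.72 and -0.43, adjusted p = 0.00289 and 0.0260). Its siRNA 2 call was lost without control 10 nM replicate 1 or either siRNA 2 array (adjusted p up to 0.128) and with every probe set on its own (0.0524). ERP44, a zinc-binding chaperone of the secretory pathway, was lower with siRNA 2 (-0.49, adjusted p = 0.000957). With siRNA 1 ERP44 differed by -0.20 (adjusted p = 0.0564). This value was called under 4 alternative settings (adjusted p from 0.00814 to 0.0394, and 0.0170 with dim genes left out). GPR39, a dim zinc-sensing receptor, was higher with siRNA 1 (0.40, adjusted p = 0.0343), a call lost without either siRNA 1 array or control 10 nM replicate 2 (up to 0.168), after another quantile normalization (0.0536) and with every probe set on its own (0.0656). CSNK2A2, a catalytic subunit of the kinase that activates ZIP7, was lower with siRNA 1 (-0.29, adjusted p = 0.00761). That call was lost without siRNA 1 replicate 1 (0.0524) and with other groups kept out of the fit (0.0536).

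**Figure D3:**
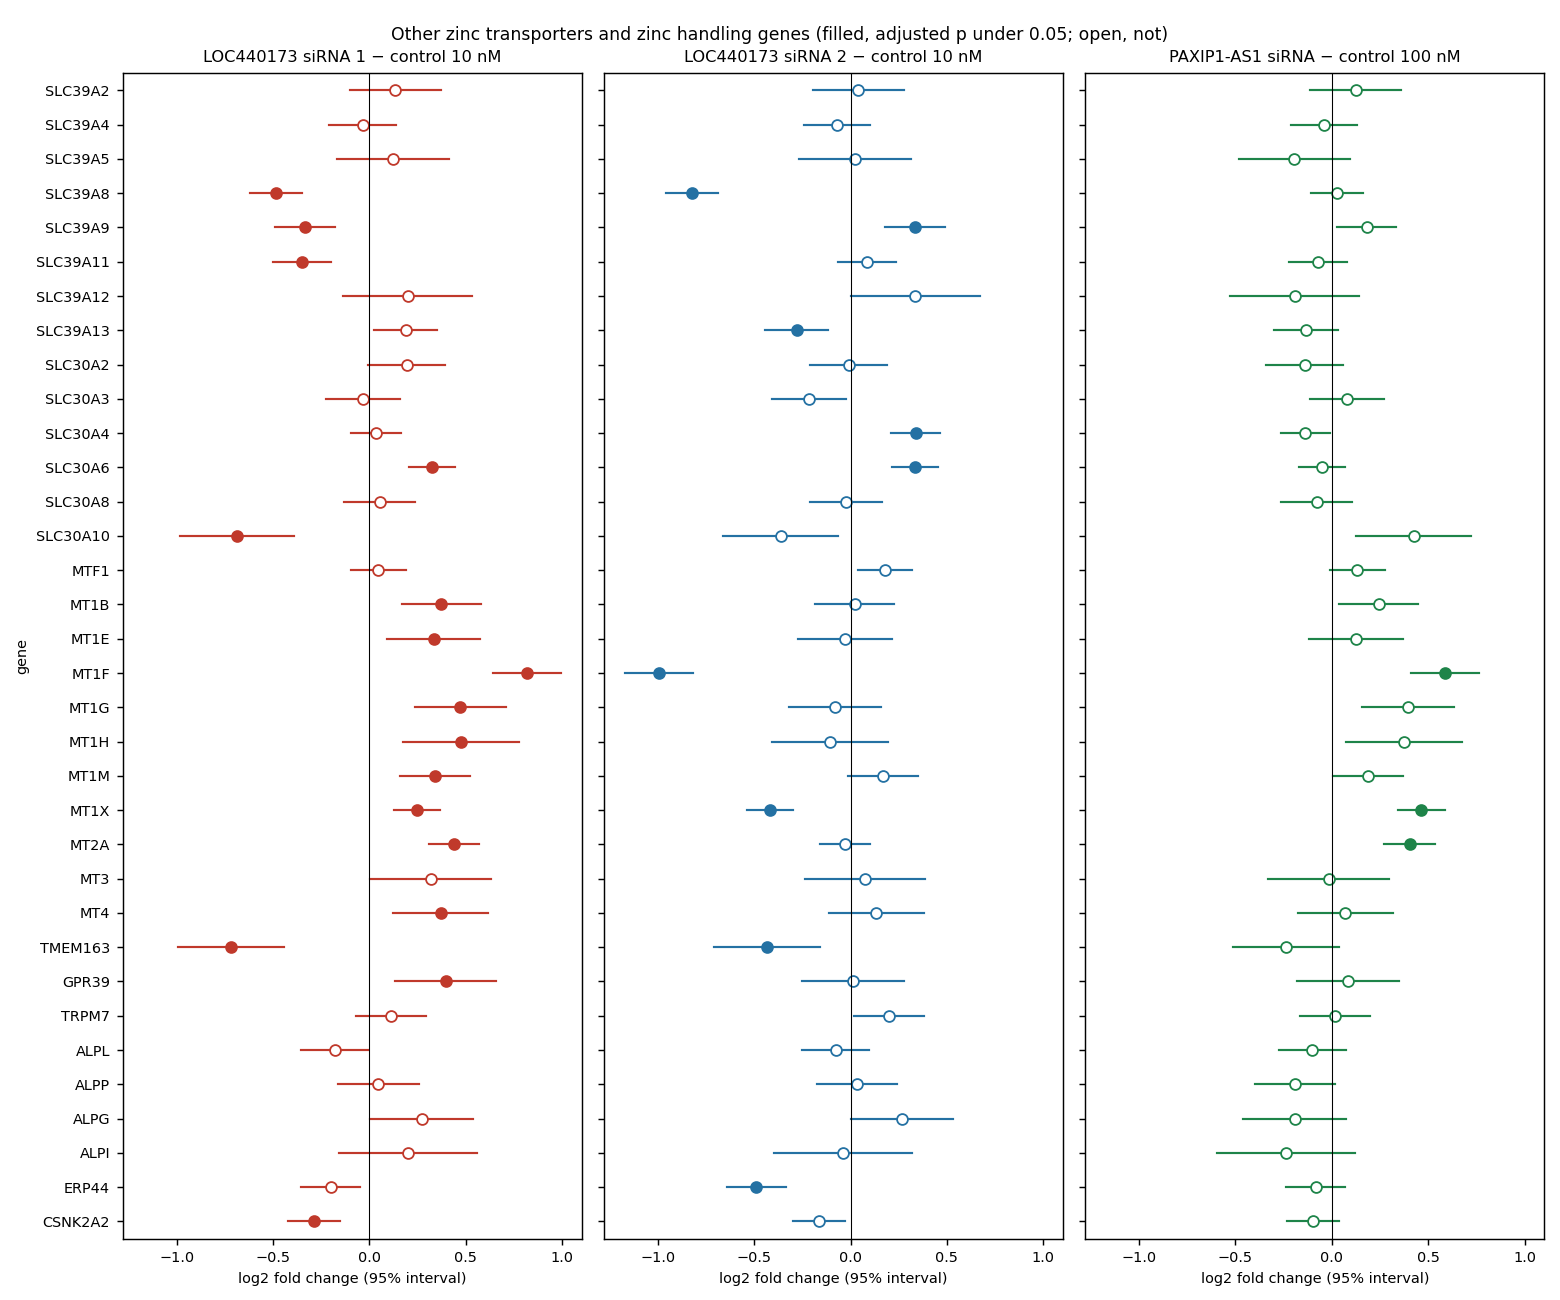
Log2 fold change against the control of the same dose, with its 95% interval, for the 14 other zinc transporters and the 20 other zinc handling genes (rows) with each siRNA (panels); filled dots passed an adjusted p of 0.05. Metallothioneins lie right of 0 with siRNA 1, MT1F at 0.82, and MT1F lies at -0.99 with siRNA 2.

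Genes beside SLC39A1 on chromosome 1, in the order of a RefSeq gene table, were compared to see whether the low level extended along the chromosome. The 3 nearest genes with a listed probe set on each side were added after the SLC39A1 values were known. None of the 6 was called lower with siRNA 1. Over all genes 16.7% were lower and 12.1% higher, and 26.6% of genes at or above the median level were lower. With 6 genes, such a count says little by itself. CRTC2, a coactivator of CREB next to SLC39A1, was higher by 0.49 (SE 0.053, adjusted p = 0.000387), and CREB3L4, a transcription factor of the endoplasmic reticulum on the other side, by 0.51 (SE 0.12, adjusted p = 0.0154), which was not called without control 10 nM replicate 1 (adjusted p = 0.0528) or 2 (0.0538) or with other groups kept out of the fit (0.0711). GATAD2B, DENND4B, JTB and RAB13 differed by 0.08, -0.09, -0.03 and 0.19 (adjusted p from 0.114 to 0.617). With siRNA 2, CRTC2 (-0.74, adjusted p = 4.79e-05) and DENND4B (-0.49, 0.000398) were lower.

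**Figure D4:**
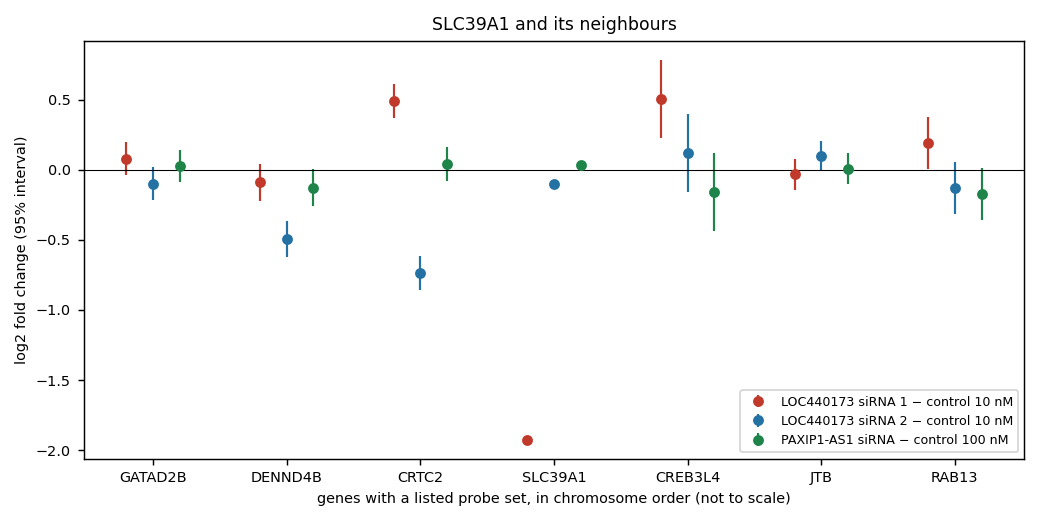
Log2 fold change with its 95% interval (none drawn for SLC39A1, which was not tested) for SLC39A1 and the 3 nearest genes with a listed probe set on each side, in chromosome order, by siRNA (colours). SLC39A1 at -1.92 stands apart from its neighbours with siRNA 1, which lie between -0.09 and 0.51.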

How the data were processed

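The authors deposited log2 values for 32321 probe sets on each of 10 arrays. RMA, which corrects background, equalises the arrays' distributions and summarises probes, and limma are named per the submitters' processing notes. Versions, the array definition file and the genome build: not given in the sources used here. RMA compresses folds of dim genes, and the signal over background is unknown. No further scaling was applied. The platform annotation gave 1 symbol for 19158 probe sets, several for 1388, and did not list 11775; the brightest probe set stood for a gene, leaving 18404.

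All arrays entered 1 limma fit (version 3.58.1, R 4.3.3) with a mean per group and eBayes (5 residual and 2.87 prior degrees of freedom). Contrasts were two-sided, p-values were adjusted by Benjamini-Hochberg across the 18404 genes, and a gene with adjusted p under 0.05 is called. The smallest exact permutation p for 2 arrays against 2 is 0.333. Errors of fold changes are standard errors (SE). The fit was tested on simulated data. The members, lists and the rule for named genes (all members, called genes of both lists, MTF1 and ERP44, 5 genes most like SLC39A1) and the 3 neighbours on each side were chosen with earlier results of these data known.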

Additional observations from a re-analysis of the deposited data

How the results depend on the processing

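Results were recomputed after another quantile normalization, with a gene's probe sets averaged or each tested singly, without dim genes, without the groups not compared, with an intensity trend and robust prior, with a replicate block, and without each array in turn. Of 765 recomputed fold changes of the 9 members other than SLC39A1, 720 kept their side of the threshold, 39 lost their call, 6 gained one, and no called value changed sign, while 15 uncalled values near 0 did. The number of these 9 called with siRNA 1 was 7, and 6 to 7 over all alternatives. With siRNA 2 it was 6 (4 to 7), between the siRNAs 9 (8 to 9) and between control doses 0 throughout. With the PAXIP1-AS1 siRNA it was 1, and 2 with SLC39A10 added with the intensity trend, without dim genes, with the replicate block and after another quantile normalization; leaving out single arrays gave 0 to 1. The same settings were run for the other named genes after their values were seen. Called zinc handling genes numbered 12 (4 to 15) with siRNA 1, 4 (3 to 7) with siRNA 2, 9 (4 to 11) between the siRNAs and 3 (0 to 4) with the PAXIP1-AS1 siRNA, and other transporters 5 (5 to 6), 5 (4 to 6), 5 (5 to 6) and 0 (0 throughout).

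Same-numbered arrays deviated together at r = 0.29 to 0.53 among 4 groups and at 0.068 to 0.090 between siRNA 1 and the others. The labels name nothing shared by a number, and each group has 2, so the numbers were not taken to pair the samples, although pairing among those 4 groups is possible. With the replicate block 7, 7, 9, 2 and 0 of the 9 members were called, in the order siRNA 1, siRNA 2, between siRNAs, PAXIP1-AS1 and control doses. The block added SLC30A1 with siRNA 2 (adjusted p = 0.0497) and SLC39A10 with the PAXIP1-AS1 siRNA (0.0289). A lone array left in a group was assumed to vary like the others. With 2 arrays per group, calls that turned on the setting included those of SLC39A3 and SLC39A14, SLC30A7 with siRNA 2, and SLC39A6 and SLC39A10 with the PAXIP1-AS1 siRNA.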

Other observations

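The genes whose levels followed SLC39A1 most closely over the 10 arrays, among genes at or above the median level, were SPC24, a kinetochore protein (r = 0.998), the GABA-degrading dehydrogenase ALDH5A1 (0.998), the mitochondrial folate enzyme MTHFD1L (0.997), the protease calpain CAPN2 (0.996) and the vesicle transport protein TMED10 (0.996). These correlations rest on the 2 siRNA 1 arrays, where all 5 genes were also low, at -1.11, -1.61, -0.83, -0.91 and -0.74 from their control. Over the other 8 arrays r was 0.73, 0.77, 0.91, -0.0082 and 0.44 in the same order. Ranked by Spearman's rho, 0 of these 5 genes were among the closest 5.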
